A study of Mus musculus with 4 samples.

Results

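The genes described here are 38 genes of the hypoxia response and of glycolysis, taken by name from a fixed list and all found among the 17574 genes of the deposited tables. They comprise 14 genes that low oxygen induces, 4 genes of oxygen sensing, 3 transporters of glucose or lactate, 15 enzymes of the glycolytic chain with lactate dehydrogenase, and 2 PFKFB enzymes that set the level of a glycolytic activator. The rule that names them uses no measured value, although the list was drawn up with earlier results of these data known.

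When oxygen is plentiful, prolyl hydroxylases mark the alpha subunits of hypoxia-inducible factor (HIF) for destruction by the VHL ubiquitin ligase. When oxygen is scarce the alpha subunits persist, pair with ARNT and bind a short DNA core near target genes for blood vessel growth, mitophagy, pH control, collagen modification and glucose use. The hydroxylases need iron as well as oxygen, and the antibody used in this study binds CD71, the transferrin receptor through which cells import iron. In tumours many glycolytic genes are highly active whether or not oxygen is low.

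The samples were tumours of SCC7, a mouse head and neck squamous carcinoma line, grown from cells placed under the dorsal skin of C3H/HeN mice with the genotype given as WT. Treated mice had anti-CD71 on days 6 and 9, and tumours of both arms were taken on day 10 for bulk RNA sequencing. There were 2 control and 2 anti-CD71 libraries. The labels do not say what the control mice received or whether each library came from its own mouse, so p-values measure only the spread between these samples. Each value is a TPM, an abundance per transcript length scaled to a fixed library total, so levels can be set side by side between genes. The read depth behind a TPM cannot be recovered and is unknown here.

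The table of anti-CD71 replicate 1 was usable for 13586 of the 59881 transcripts of the other libraries. Of the 38 genes, 5 could be compared over all 4 libraries (Adm, Higd1a, Slc2a1, Egln1 and Ndrg1), because their listed transcripts carried at least 90% of their TPM. A further 14 were listed in smaller part, and 19 were missing from that library, which is not a value of 0. All 38 could be compared over 3 libraries, with anti-CD71 replicate 2 as the only treated sample, and all 38 passed the filter of 1 TPM in 2 libraries. The 2 comparisons share both controls and anti-CD71 replicate 2, so their values are given side by side and do not support each other.

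The labelled tumour type was checked against its markers. Krt8 and Krt18, keratins of simple epithelium, stood at 1132.27 and 657.36 TPM in control 1, 1202.77 and 680.49 TPM in control 2, and 1255.9 and 893.37 TPM in anti-CD71 replicate 2. The squamous keratins Krt5 and Krt14 did not exceed 0.1 TPM in either control but reached 31.4 and 36.37 TPM in anti-CD71 replicate 2. Markers of differentiated epidermis were also higher in that library, with sums of 1.7 and 2.0 TPM in controls and 50.1 TPM there. The integrins Itga6 (44.58, 47.12 and 44.65 TPM) and Itgb4 (93.68, 87.43 and 76.46 TPM) were present in controls 1 and 2 and anti-CD71 replicate 2. Epcam did not exceed 1.3 TPM in these 3 libraries, and Cdh1, Trp63 and Cldn4 did not exceed 2.46 TPM.

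The DNA just upstream of 6 of the genes is shown because HIF acts through the cores ACGTG and GCGTG, and because these genes include the strongest differences in both directions among those induced by low oxygen. Each run holds the 250 bases before a RefSeq start site (GRCm38.p6), read 5′ to 3′ along the gene's strand. Capitals mark a core on either strand, so that CACGT and CACGC are cores of the opposite strand. The windows are chr7:110627407-110627656 (+) for Adm, chr9:121857797-121858046 (-) for Higd1a, chr4:119108495-119108744 (+) for Slc2a1, chr7:138909507-138909756 (-) for Bnip3, chr10:59951771-59952020 (-) for Ddit4 and chr17:46032378-46032627 (-) for Vegfa.
Adm: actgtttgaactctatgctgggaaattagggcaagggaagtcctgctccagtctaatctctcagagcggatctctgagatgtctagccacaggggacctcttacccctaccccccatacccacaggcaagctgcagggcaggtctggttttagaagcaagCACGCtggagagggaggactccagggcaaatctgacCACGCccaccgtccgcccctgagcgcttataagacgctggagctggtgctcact
Higd1a: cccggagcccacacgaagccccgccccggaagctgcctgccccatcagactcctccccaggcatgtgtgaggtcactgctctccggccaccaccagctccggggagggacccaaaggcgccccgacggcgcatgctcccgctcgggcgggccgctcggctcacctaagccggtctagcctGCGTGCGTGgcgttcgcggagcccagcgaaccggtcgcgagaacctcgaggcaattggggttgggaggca
Slc2a1: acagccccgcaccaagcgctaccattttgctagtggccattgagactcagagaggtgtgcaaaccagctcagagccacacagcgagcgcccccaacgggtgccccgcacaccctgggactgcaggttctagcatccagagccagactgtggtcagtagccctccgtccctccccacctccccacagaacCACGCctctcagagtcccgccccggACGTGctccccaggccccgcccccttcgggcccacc
Bnip3: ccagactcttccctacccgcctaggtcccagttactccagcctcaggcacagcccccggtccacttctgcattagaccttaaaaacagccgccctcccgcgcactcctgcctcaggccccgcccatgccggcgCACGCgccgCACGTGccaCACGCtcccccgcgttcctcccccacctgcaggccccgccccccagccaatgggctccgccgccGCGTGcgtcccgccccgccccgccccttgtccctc
Ddit4: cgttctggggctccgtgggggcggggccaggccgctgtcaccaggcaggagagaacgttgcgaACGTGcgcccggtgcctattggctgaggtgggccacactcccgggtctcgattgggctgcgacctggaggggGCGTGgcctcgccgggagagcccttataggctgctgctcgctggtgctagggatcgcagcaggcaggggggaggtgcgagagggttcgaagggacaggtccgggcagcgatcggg
Vegfa: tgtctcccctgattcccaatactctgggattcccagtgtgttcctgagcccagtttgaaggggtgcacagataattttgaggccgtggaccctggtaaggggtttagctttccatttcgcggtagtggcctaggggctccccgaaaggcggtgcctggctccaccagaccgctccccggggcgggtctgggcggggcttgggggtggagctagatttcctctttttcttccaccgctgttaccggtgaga

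Bnip3 held 5 cores in its window, and those 108 and 107 bases before the start site are the 2 strands of a single CACGTG, in which ACGTG is found on both strands. Adm held GCGTG on the opposite strand 90 and 54 bases before its start site. Higd1a held GCGTG on its own strand 70 and 66 bases before the start, sharing the base between them. Slc2a1 held GCGTG on the opposite strand at 61 bases and ACGTG on its own strand at 36 bases, and Ddit4 held ACGTG at 187 bases and GCGTG at 115 bases. The Vegfa window at the outer start of the gene held neither core, and a further RefSeq window of Vegfa, which lies inside the gene, held 1 of each.

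Upstream windows were available for 32 of the 38 genes, 46 windows in all. Plod2, Slc2a3, Epas1, Lox, Ndrg1 and Bnip3l had none. At least 1 of the 2 cores was present in 82.6% of these windows, compared with 38.6% of all 32851 windows of the same length and 55.0% of the 12241 windows of genes tested over 3 libraries. ACGTG was present in 23 of the 46 windows, compared with 16.6% and 21.3%. GCGTG was present in 56.5%, compared with 28.2% and 43.9%. CACGTG, the E-box read by other factors too, was present in 10.9%, compared with 6.0% and 8.0%.

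Of the 32 genes with a window, 30 held a core in at least 1 window. The share was 41.5% of all genes with a window and 60.8% of those tested over 3 libraries. The exceptions were the glycolytic genes Gpi1 and Tpi1. A core was present in 12 of 13 genes that anti-CD71 replicate 2 had above both controls, and in 16 of 17 genes that it had below both. These matches describe letters in a window and are not binding sites.

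Over 4 libraries Adm rose with anti-CD71, by 0.98 on the log2 scale, and it was the only 1 of the 5 testable genes to pass the test. Higd1a and Slc2a1 were also above both controls in both treated libraries without passing. Adm encodes adrenomedullin, a vasodilator peptide, and lies at chr7:110627657-110629820 (GRCm38.p6). It stood at 18.96 and 26.26 TPM in controls 1 and 2, compared with 45.63 and 44.41 TPM in anti-CD71 replicates 1 and 2. Both treated libraries lay above both controls, at close to the same level (45.02 ± 0.86 TPM compared with 22.61 ± 5.16 TPM, SD, n = 2 each). The log2 difference of 0.98 had a standard error of 0.152 and an adjusted p of 0.0388 with limma. Fold changes here and below are differences in log2(TPM + 1), which understate the change of genes with low values.

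Higd1a encodes a small protein of the inner mitochondrial membrane. It stood at 36.86 and 39.12 TPM in controls 1 and 2, compared with 44.2 and 49.23 TPM with anti-CD71, a log2 difference of 0.29 (95% interval 0.075 to 0.505, limma adjusted p = 0.123). Slc2a1 encodes GLUT1, the glucose carrier most widely used by dividing cells. It stood at 153.74 and 162.24 TPM in the control pair, compared with 176.56 and 193.48 TPM in the treated pair, a log2 difference of 0.226 (interval 0.038 to 0.413, adjusted p = 0.146). The groups did not overlap for either gene, and both intervals lay above 0 before adjustment over all genes.

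The groups overlapped for the remaining genes. Egln1, the main prolyl hydroxylase of HIF, stood at 50.04 and 59.78 TPM in controls, against 53.62 and 65.57 TPM with anti-CD71, a log2 difference of 0.115 (interval -0.213 to 0.442, adjusted p = 0.61). Its direction turned when control replicate 1 was left out (-0.011) and when anti-CD71 replicate 2 was left out (-0.028). Ndrg1, a stress-responsive gene and common hypoxia marker, stood at 216.55 and 243.19 TPM in controls, against 247.24 and 242.5 TPM with anti-CD71, a log2 difference of 0.093 (interval -0.098 to 0.285, adjusted p = 0.481). For both genes control 1 was the lowest of the 4 libraries.

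**Figure D1:**
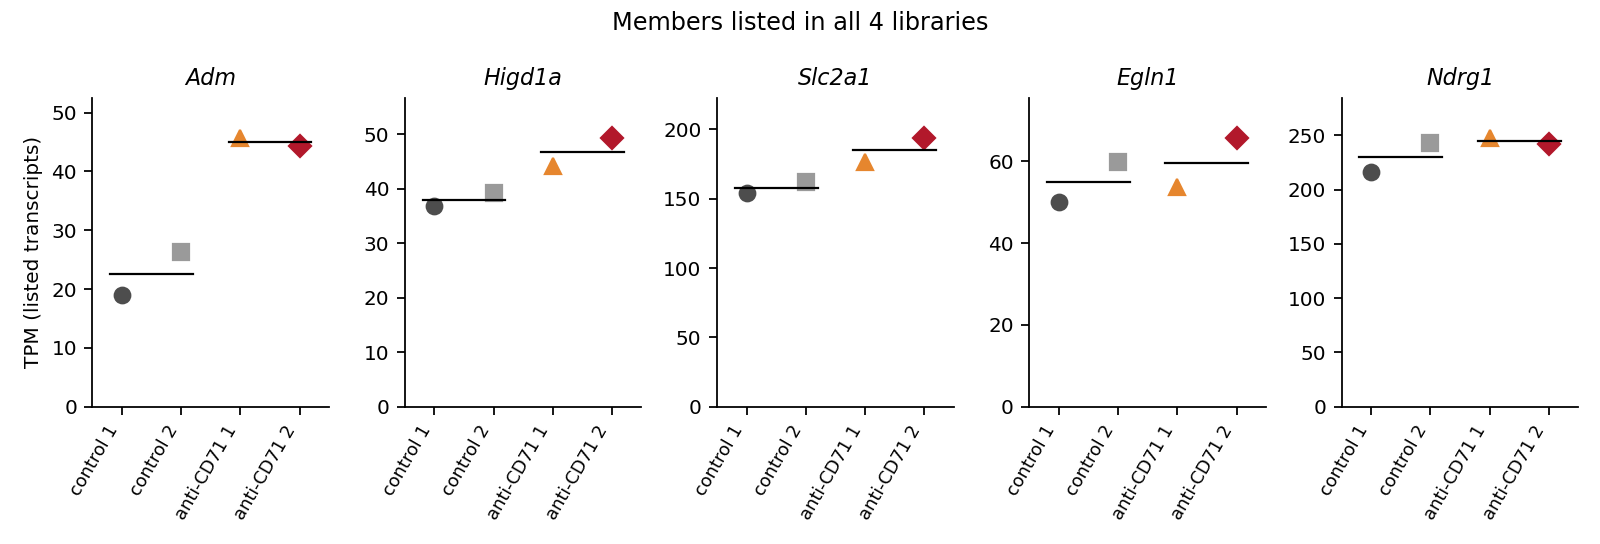
TPM (vertical axes, from 0) in each of the 4 libraries for the 5 genes that could be compared over all of them, summed over shared transcripts; the lines are group means. Both anti-CD71 points of Adm, 45.63 and 44.41 TPM, lie above the control points at 18.96 and 26.26 TPM, while the groups overlap for Egln1 and Ndrg1.

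Of the 5 genes, 1 was called higher and 0 were called lower, compared with 0.832% called higher and 3.45% called lower of the 1563 genes tested over 4 libraries. The limma count at an unadjusted p under 0.05 was 3 higher and 0 lower, compared with 171 and 244 of the 1563 genes. The treated libraries were both above both controls for 3 of the 5 and below for 0, compared with 28.3% and 31.1% of all genes tested. The median log2 difference of the 5 was 0.23, and that of all genes tested was -0.009. The Adm call was lost when any 1 library was left out, with log2 differences from 0.755 (without control replicate 1) to 1.205 (without control replicate 2). Over its 13 alternative settings Adm passed in 4, with adjusted p from 0.0328 to 0.189, and it was higher with anti-CD71 in all 13.

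Of the genes listed in smaller part, 5 had listed transcripts with at least 15.12% of their TPM, and the others had 5.02% or less. Vegfa encodes the main growth factor for blood vessels, and 1 of its 10 transcripts was listed, carrying 15.12% of its TPM. This transcript stood at 18.97 and 20.42 TPM in controls, against 10.97 and 13.06 TPM with anti-CD71. Both treated libraries were lower, with a log2 difference of -0.673 that did not pass when all genes with any listed transcript were tested (adjusted p = 0.124, limma). In each complete library the tables gave another Vegfa transcript exactly the same value, so these transcript values are not independent.

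Hif1a encodes the oxygen-regulated HIF-1 alpha subunit. Its listed transcript, with 39.9% of its TPM, stood at 31.26 and 28.34 TPM in controls, against 35.34 and 39.5 TPM with anti-CD71. For this transcript the groups did not overlap (log2 difference 0.318, limma adjusted p = 0.222). Unlisted transcripts with 33.17% and 23.03% of its TPM did not follow. They stood at 32.4, 24.55 and 25.44 TPM and at 13.63, 21.94 and 21.63 TPM in controls 1 and 2 and anti-CD71 replicate 2. For P4ha2, a subunit of the enzyme that hydroxylates collagen prolines, the listed transcript, with 51.76% of its TPM, stood at 7.42 and 12.26 TPM in controls, against 8.63 and 5.52 TPM with anti-CD71, and the groups overlapped. The listed transcripts of Slc2a3, the high-affinity carrier GLUT3, lay between 4.87 and 5.72 TPM in all 4 libraries.

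For Hk1, the hexokinase found in most tissues, the direction differed between transcripts. The listed one, with 33.52% of its TPM, stood at 23.33 and 25.7 TPM in controls, against 33.46 and 33.12 TPM with anti-CD71 (log2 difference 0.428, adjusted p = 0.131). The most abundant transcript stood at 42.84 and 40.19 TPM in controls, compared with 34.5 TPM in anti-CD71 replicate 2, and a further one at 16.4, 15.16 and 7.56 TPM in the same order. The listed transcript was thus higher in both treated libraries, while these 2 were lower in the treated library that lists them. Of the 14 genes that could be tested over any listed transcript, 10 lay above 0 and 4 below, and 0 passed. In limma 8 had an unadjusted p under 0.05, compared with 851 of all 4699 genes tested in this way. The highest differences were those of 2 minor transcripts. The listed Gapdh transcript, with 0.43% of its TPM, stood at 7.23 and 25.13 TPM in controls, against 34.78 and 53.89 TPM with anti-CD71 (log2 difference 1.60, adjusted p = 0.254). The listed Pkm transcript, with 0.51% of its TPM, stood at 10.28 and 7.67 TPM in controls, against 20.77 and 17.0 TPM with anti-CD71 (1.00, adjusted p = 0.119). Both lay above the controls, while the whole-gene values of Gapdh and Pkm over 3 libraries lay below them.

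**Figure D2:**
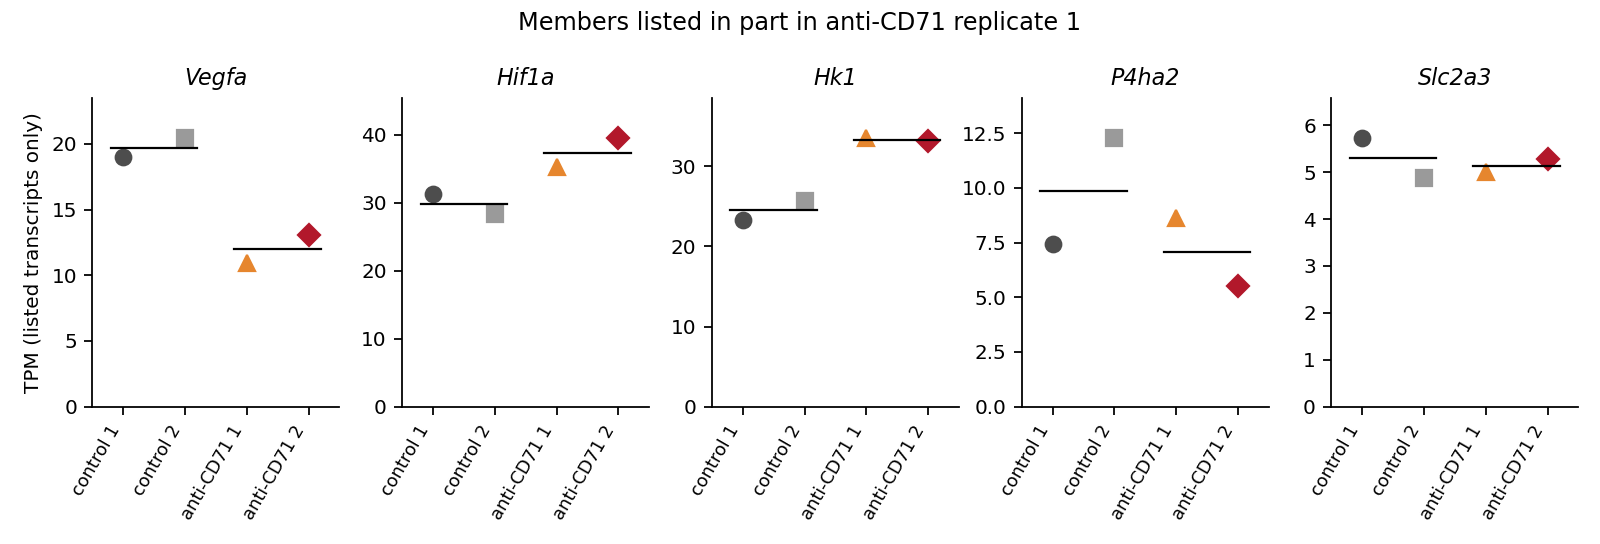
TPM (vertical axes, from 0) of the transcripts listed in all 4 libraries for 5 genes of which anti-CD71 replicate 1 lists only a part; the lines are group means. Vegfa lies lower in both anti-CD71 libraries (10.97 and 13.06 TPM) than in the controls (18.97 and 20.42 TPM), Hif1a and Hk1 lie higher, and the groups overlap for P4ha2 and Slc2a3.

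Over 3 libraries the 38 genes did not share a direction, with 19 above 0 and 19 below, and only Pfkfb4 passed the test. Pfkfb4 fell by 0.80 on the log2 scale. Genes called higher numbered 0 of 38 and genes called lower 1 of 38, compared with 0.476% and 2.39% of the 11982 genes tested. The limma count at an unadjusted p under 0.05 was 6 higher and 6 lower, compared with 1285 and 1674 of the 11982 genes. Later counts of this kind over 3 libraries have the same background. Anti-CD71 replicate 2 was above both controls for 15 of the 38 and below both for 19, compared with 39.5% and 42.5% of all genes. The median log2 difference was -0.01, beside -0.008 over all genes. The test takes the lone treated library to vary as the controls do. Where all 4 libraries could be read, however, the SD of the difference within the treated pair (0.294, log2) exceeded that within the control pair (0.222).

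Among the 14 genes induced by low oxygen, 10 were above 0 and 4 below in anti-CD71 replicate 2, with a median of 0.13 and a range from -0.50 to 0.96. None of the 14 passed the limma test (5 higher and 2 lower at an unadjusted p under 0.05). Their summed TPM was 1033.0 and 1151.4 in controls 1 and 2 and 1182.9 in anti-CD71 replicate 2. Adm and Ankrd37 had the highest log2 differences of the 14, and Ddit4 and Vegfa the lowest.

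Adm was the highest of the 14 by its log2 difference, 0.961 over these 3 libraries (interval 0.461 to 1.461, adjusted p = 0.0727). Bnip3 and Bnip3l encode receptors on the outer mitochondrial membrane that direct mitochondria to autophagy. Bnip3 stood at 151.39 and 159.68 TPM in controls, compared with 204.61 TPM in anti-CD71 replicate 2, a log2 difference of 0.394 (interval 0.2 to 0.588, adjusted p = 0.0675). Bnip3l stood at 99.36 and 98.6 TPM in controls and 120.78 TPM in the treated library, a log2 difference of 0.285 (interval 0.093 to 0.476, adjusted p = 0.108). The treated library was above both controls for each, by more than the controls differed.

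Ankrd37, an ankyrin repeat gene with 4 cores in its upstream window, stood at 18.68 and 24.37 TPM in controls and 32.1 TPM in the treated library (log2 difference 0.567, adjusted p = 0.133). Plod2, which hydroxylates collagen lysines, stood at 85.96 and 90.67 TPM in controls and 100.76 TPM in the treated library (0.189, adjusted p = 0.234). Higd1a over all its transcripts stood at 37.17, 39.17 and 49.45 TPM in the same order. These 3 genes were also above both controls.

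For 4 of the 14 the treated library lay between the controls. Car9, a carbonic anhydrase at the cell surface that acidifies the surroundings and is much used as a hypoxia marker, stood at 72.93 and 93.56 TPM in controls, compared with 87.34 TPM in anti-CD71 replicate 2 (log2 difference 0.079, interval -0.324 to 0.482). P4ha1, the alternative to P4ha2 as catalytic alpha subunit of the collagen prolyl hydroxylases, stood at 105.56, 109.3 and 107.83 TPM in the same order. Lox, the collagen crosslinking enzyme lysyl oxidase, stood at 0.63, 3.17 and 2.17 TPM, and its controls differed more than those of any other of the 38 genes. Ndrg1 was the remaining gene of these 4. Without control replicate 1 the log2 differences of all 4 turned below 0, to -0.098 for Car9, -0.396 for Lox, -0.019 for P4ha1 and -0.004 for Ndrg1.

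The treated library was below both controls for Vegfa, Ddit4, P4ha2 and Pdk1. Vegfa over all transcripts stood at 117.06 and 135.61 TPM in controls, compared with 94.14 TPM in anti-CD71 replicate 2, a log2 difference of -0.417 (interval -0.698 to -0.135, adjusted p = 0.109). Ddit4, an inhibitor of the growth kinase complex mTORC1, stood at 36.16 and 50.49 TPM in controls and 29.99 TPM in the treated library, a log2 difference of -0.497 (interval -1.012 to 0.018, adjusted p = 0.214). For Ddit4 the controls differed from each other nearly as much, by 0.47 on the same scale.

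P4ha2 over both transcripts stood at 16.4 and 18.72 TPM in controls and 13.57 TPM in the treated library (log2 difference -0.346, adjusted p = 0.168). Pdk1, a kinase that shuts pyruvate out of the mitochondrial cycle by inhibiting pyruvate dehydrogenase, stood at 56.22, 58.56 and 53.29 TPM in the same order (-0.105, adjusted p = 0.484). Neither passed the test.

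**Figure D3:**
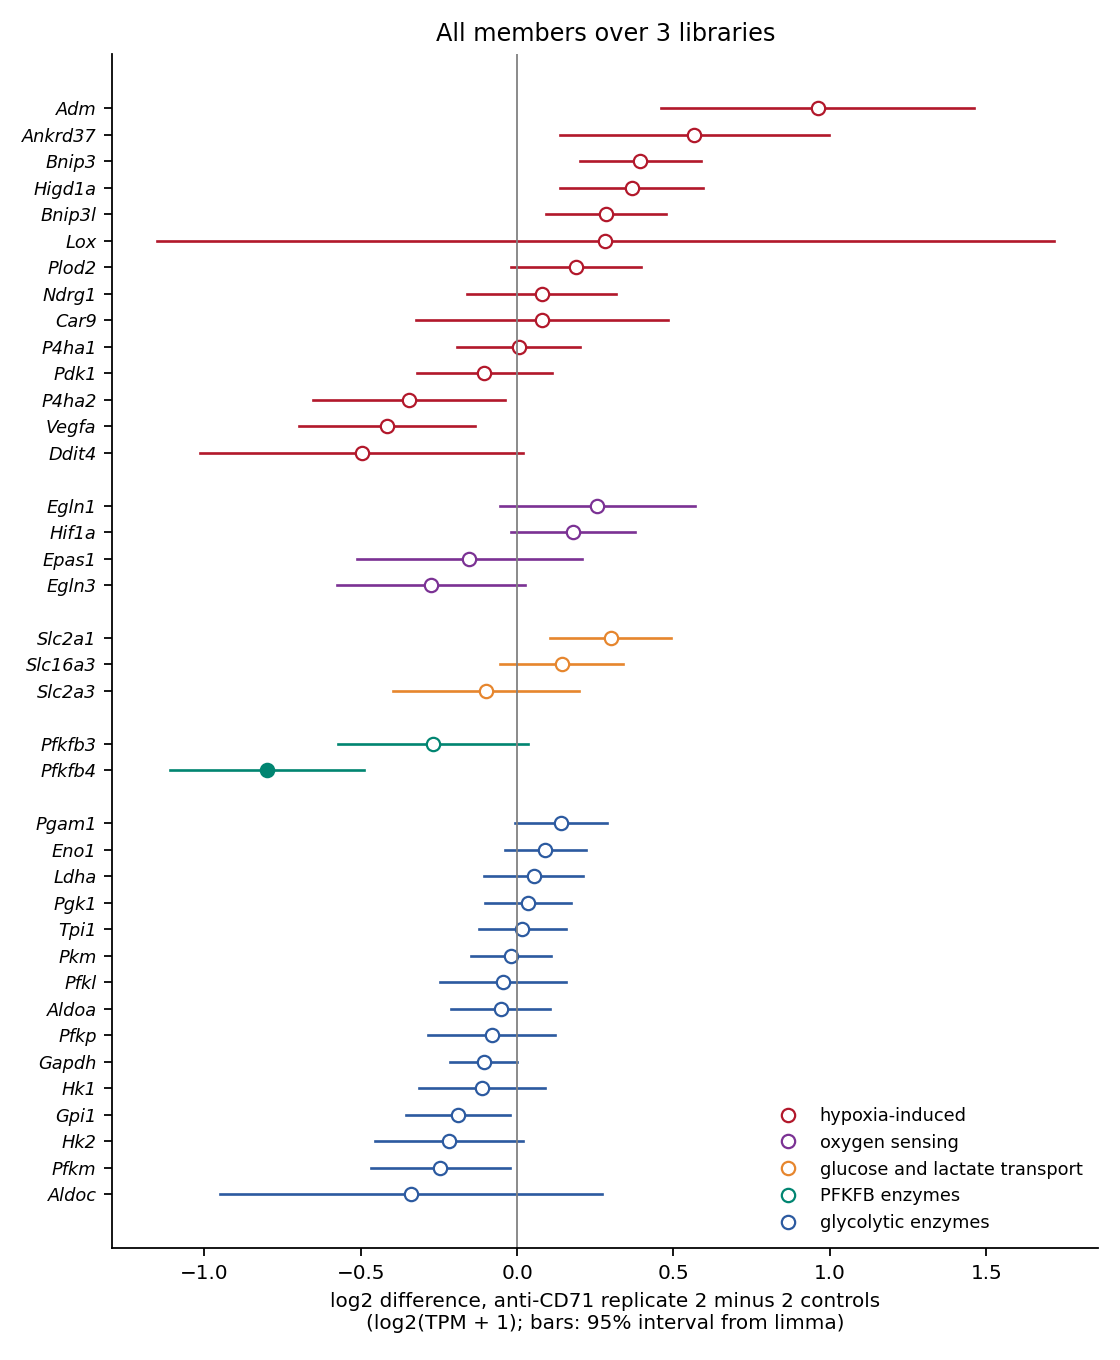
Difference in log2(TPM + 1) between anti-CD71 replicate 2 and the 2 controls (horizontal axis) for all 38 genes by role, with the 95% interval from limma; a filled point marks an adjusted p under 0.05. Pfkfb4 is the only filled point, hypoxia-induced genes run from -0.50 to 0.96, and glycolytic enzymes lie close to 0.

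The 4 genes of oxygen sensing were split evenly, with 2 above both controls and 2 below both, and 0 passed (0 at an unadjusted p under 0.05). Hif1a stood at 79.6 and 78.92 TPM in controls, compared with 89.87 TPM in anti-CD71 replicate 2 (log2 difference 0.179, interval -0.019 to 0.377, adjusted p = 0.234). Epas1, the HIF-2 alpha subunit found mainly in vessels and some epithelia, was far lower in level, at 5.32, 4.98 and 4.53 TPM in the same order. Egln1 over all transcripts stood at 51.57 and 60.95 TPM in controls and 67.18 TPM in the treated library (0.257, adjusted p = 0.267). Egln3, a further prolyl hydroxylase and itself a HIF target, stood at 33.39 and 28.98 TPM in controls and 25.53 TPM in the treated library (-0.275, adjusted p = 0.229). The 2 hydroxylases thus lay on opposite sides of the controls in anti-CD71 replicate 2. In replicate 1 the listed Egln1 transcript, at 53.62 TPM, lay between the controls at 50.04 and 59.78 TPM.

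The transporters of glucose and lactate summed to 342.6 and 340.2 TPM in controls, compared with 395.5 TPM in anti-CD71 replicate 2. Slc2a1 stood at 154.17, 162.24 and 194.77 TPM in the same order (log2 difference 0.299, interval 0.105 to 0.492, adjusted p = 0.102). Slc16a3, the lactate exporter MCT4, stood at 179.66 and 169.44 TPM in controls and 192.75 TPM in the treated library (0.143, adjusted p = 0.312). Slc2a3 stood at 8.76, 8.47 and 7.98 TPM. The 2 abundant carriers were above both controls and the scarce one was below, and 0 of the 3 passed (1 at an unadjusted p under 0.05).

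The 15 enzymes that turn glucose into lactate summed to 17909.1 and 17846.2 TPM in controls, compared with 17520.2 TPM in anti-CD71 replicate 2. Gapdh alone accounts for this lower sum, at 6885.88 and 6875.62 TPM in controls and 6387.83 TPM in the treated library. Without Gapdh the summed level of the other enzymes was slightly above both controls. None passed the limma test (0 higher and 3 lower at an unadjusted p under 0.05), 5 of the 15 were above both controls and 10 below both, compared with 39.5% and 42.5% of all genes. Their median log2 difference was -0.05, with a range from -0.34 to 0.14. The controls agreed closely for these genes, with a median absolute log2 difference of 0.03 between them, compared with 0.09 over all genes. The treated library differed from the controls by a median absolute 0.09, compared with 0.16 over all genes and 0.32 over the 14 genes induced by low oxygen. Between the controls the median absolute difference of those 14 genes was 0.17, so all 3 values exceeded the matching spread between controls. Many of these enzymes are very abundant, and they were not compared with other genes of like level.

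Read along the pathway, the enzymes of the early steps lay below the controls. Hexokinases phosphorylate glucose on entry, and Hk2, the inducible form common in tumours, stood at 22.96 and 23.29 TPM in controls and 19.75 TPM in the treated library (log2 difference -0.217, adjusted p = 0.229). Gpi1, the isomerase that follows, stood at 467.75, 450.92 and 402.87 TPM in the same order (-0.189, adjusted p = 0.166). Hk1 stood at 84.65, 82.97 and 77.49 TPM. All 3 were below both controls and did not pass.

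The phosphofructokinases catalyse the committed step. Pfkm, the muscle form, stood at 37.3 and 37.07 TPM in controls and 31.21 TPM in the treated library (log2 difference -0.245, adjusted p = 0.173). Pfkl, the liver form and the most abundant of the 3 in level, stood at 139.67, 147.97 and 139.44 TPM in the same order, and Pfkp, the platelet form, at 73.91, 75.68 and 70.63 TPM. Each was below both controls, Pfkl by less than the controls differed from each other.

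The aldolases split the sugar. Aldoa stood at 1340.53, 1420.7 and 1330.82 TPM, and Aldoc, the brain form, at 1.91, 1.38 and 1.08 TPM in the same order. Tpi1, which interconverts the products, stood at 1137.59 and 1159.19 TPM in controls and 1161.81 TPM in the treated library. Gapdh, often taken as a reference gene, stood at 6885.88 and 6875.62 TPM in controls and 6387.83 TPM in the treated library (log2 difference -0.107, interval -0.214 to -0.001, adjusted p = 0.2). It was the most abundant of the 38 genes in level.

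Of the later steps, Pgam1, Eno1, Pgk1 and Ldha were above both controls and Pkm was below both, and none passed. Pgam1, a mutase, stood at 790.41 and 808.46 TPM in controls and 881.61 TPM in the treated library (log2 difference 0.141, interval -0.006 to 0.288, adjusted p = 0.216). Eno1, the enolase, stood at 1666.91, 1673.74 and 1778.5 TPM in the same order (0.09, adjusted p = 0.331), and its value comes from a transcript copy that the tables place at a second locus.

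Pgk1, a kinase that yields ATP, stood at 1300.99, 1279.14 and 1322.35 TPM in controls 1 and 2 and the treated library. Ldha, which reduces pyruvate to lactate, stood at 1649.19, 1547.67 and 1657.1 TPM in the same order. Pkm, the pyruvate kinase, stood at 2309.43, 2262.36 and 2257.73 TPM (log2 difference -0.018, which became 0.024 with median scaling). These genes differed from the controls by less than 0.06 on the log2 scale, and the intervals ran from -0.101 to 0.172 for Pgk1, from -0.106 to 0.212 for Ldha and from -0.146 to 0.11 for Pkm.

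**Figure D4:**
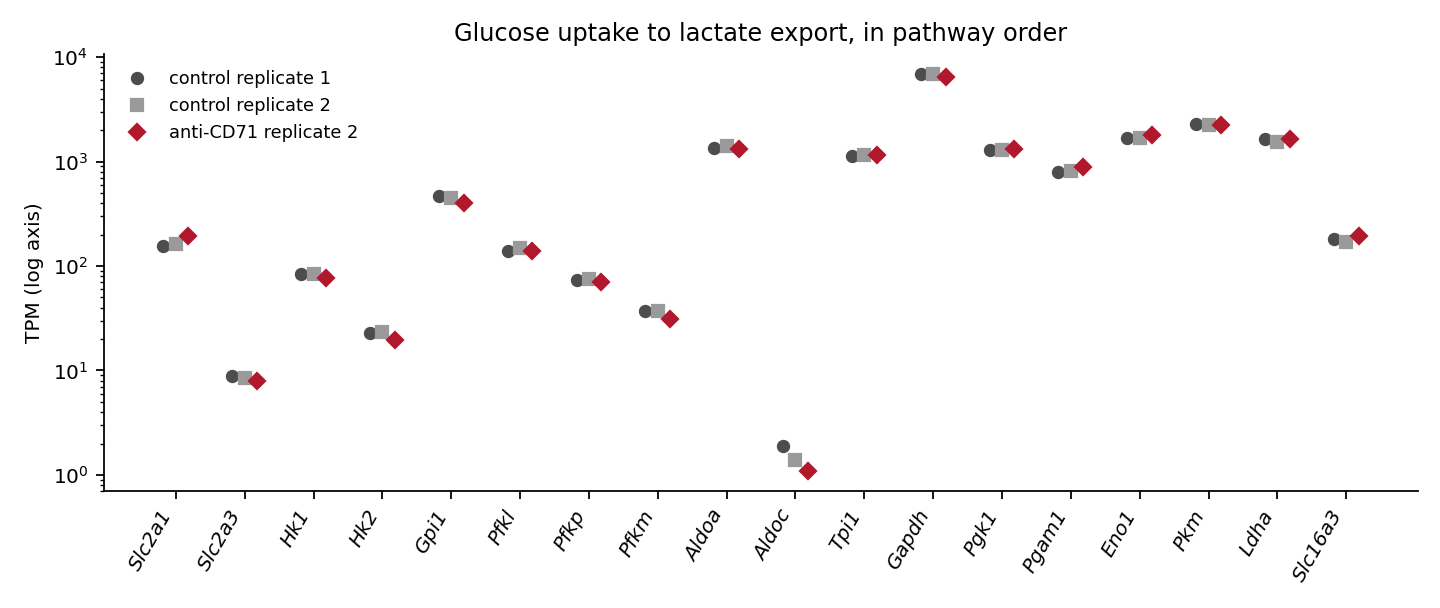
TPM on a log axis for glucose carriers, glycolytic enzymes and the lactate exporter in pathway order, in both controls and anti-CD71 replicate 2. Levels run from about 1 TPM for Aldoc to 6885.88 TPM for Gapdh in control 1, and the 3 libraries nearly coincide for most genes on this scale.

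The PFKFB enzymes make and break the fructose bisphosphate that activates phosphofructokinase. Pfkfb4 stood at 11.74 and 13.01 TPM in controls, compared with 6.68 TPM in anti-CD71 replicate 2. The treated library was below both controls, by far more than they differed from each other. The log2 difference was -0.80 (standard error 0.12, limma adjusted p = 0.0474), and Pfkfb4 passed in 2 of its 6 tested alternatives, with adjusted p from 0.0475 to 0.212. Pfkfb3, whose product strongly favours synthesis of the activator, stood at 11.71, 13.03 and 10.09 TPM in the same order (-0.268, adjusted p = 0.24). Anti-CD71 replicate 1 listed transcripts with only 3.18% of the Pfkfb4 level, so no treated replicate checks this gene.

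The controls themselves differed in the genes induced by low oxygen. Control 2 was above control 1 in 13 of these 14 genes, or 92.9%, compared with 53.9% of all genes tested and with 7 of the 15 glycolytic enzymes. The exception was Bnip3l, at -0.01. The log2 difference of control 2 from control 1 was 0.45 for Adm, 0.47 for Ddit4, 0.37 for Ankrd37, 0.36 for Car9 and 0.21 for Vegfa, with a median of 0.17 over the 14 and 0.01 over all genes. For Adm and Ankrd37 the treated library continued above control 2, while for Vegfa and Ddit4 it lay below control 1. The part of this spread in the comparison was not tested.

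Other genes of the pathways were read from lists of the regulators, further targets and adjoining enzymes. Of 13 tested regulators of HIF, 0 passed in limma (2 higher and 4 lower at an unadjusted p under 0.05), 4 were above 0 and 9 below. Eloc, a subunit of the VHL ubiquitin ligase, stood at 73.37 and 71.93 TPM in controls, compared with 96.01 TPM in anti-CD71 replicate 2 (log2 difference 0.398, adjusted p = 0.0701). Ep300, a coactivator of HIF, stood at 27.52, 28.1 and 21.59 TPM in the same order (-0.351, adjusted p = 0.106).

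Of 30 other HIF targets tested, 2 were called higher and 1 lower, compared with 0.476% and 2.39% of all genes tested. Their median log2 difference was 0.14. Angptl4, a secreted inhibitor of lipoprotein lipase, rose from 36.58 and 34.4 TPM in controls to 73.72 TPM (log2 difference 1.03, standard error 0.09, adjusted p = 0.0206). Nos2, the inducible nitric oxide synthase that myeloid cells also express, rose from 2.8 and 2.32 TPM to 9.34 TPM (1.54, adjusted p = 0.0288). Its listed transcripts, with 88.59% of its TPM, stood at 2.49 and 0.98 TPM in controls, against 14.84 and 9.34 TPM with anti-CD71. Bhlhe40, a transcriptional repressor, fell from 52.8 and 51.86 TPM to 35.05 TPM (-0.56, adjusted p = 0.0472). Angptl4 and Bhlhe40 were missing from anti-CD71 replicate 1. Angptl4 and Nos2 passed in 3 of 6 tested alternatives (adjusted p from 0.0165 to 0.151 and from 0.0226 to 0.196) and Bhlhe40 in 2 (from 0.0448 to 0.152). Tfrc, which encodes CD71 itself and is also a HIF target, stood at 44.11 and 36.16 TPM in controls and 29.0 TPM in the treated library (-0.449, adjusted p = 0.141).

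Among 25 other enzymes of glucose and lactate use, 0 passed (4 higher and 3 lower at an unadjusted p under 0.05), with a median of 0.05. Slc2a6, a hexose carrier of inflammatory macrophages, could be followed in all libraries and stood at 8.06 and 11.65 TPM in controls, against 6.67 and 3.44 TPM with anti-CD71. Both treated libraries were below both controls (log2 difference -0.875 over 4 libraries, adjusted p = 0.146). With 1 library left out this ran from -0.481 (without anti-CD71 replicate 2) to -1.27 (without anti-CD71 replicate 1), and the latter was the only 1 of 13 alternatives to pass, with adjusted p from 0.0426 to 0.55 over them. Pdk2, a relative of Pdk1, stood at 6.32, 6.63 and 3.86 TPM in controls 1 and 2 and anti-CD71 replicate 2 (-0.621, adjusted p = 0.0801).

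Of the pentose phosphate pathway 0 of 7 genes passed (1 higher at an unadjusted p under 0.05), with a median of -0.03. Of the mitochondrial citrate cycle 0 of 17 passed (4 higher), with 11 above 0 and a median of 0.10. The citrate cycle genes summed to 2123.1 and 2064.3 TPM in controls and 2221.0 TPM in the treated library.

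The integrated stress response, which shares Ddit4 as a target with HIF, lay on the lower side. All 11 tested genes were below 0, with a median of -0.40, compared with 6152 of all 11982 genes and a median of -0.008. Of the 11, 2 were called lower, compared with 2.39% of all genes. Nupr1, a stress-induced chromatin protein, fell from 274.92 and 335.29 TPM to 148.42 TPM (log2 difference -1.03, adjusted p = 0.0343). Ddit3, which encodes the stress factor CHOP, fell from 66.69 and 77.32 TPM to 41.92 TPM (-0.76, adjusted p = 0.0474). Nupr1 passed in 3 of 6 tested alternatives (adjusted p from 0.0329 to 0.227) and Ddit3 in 2 (from 0.0453 to 0.227). Control 2 was above control 1 in 10 of these 11 genes, as it was for the genes induced by low oxygen.

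**Figure D5:**
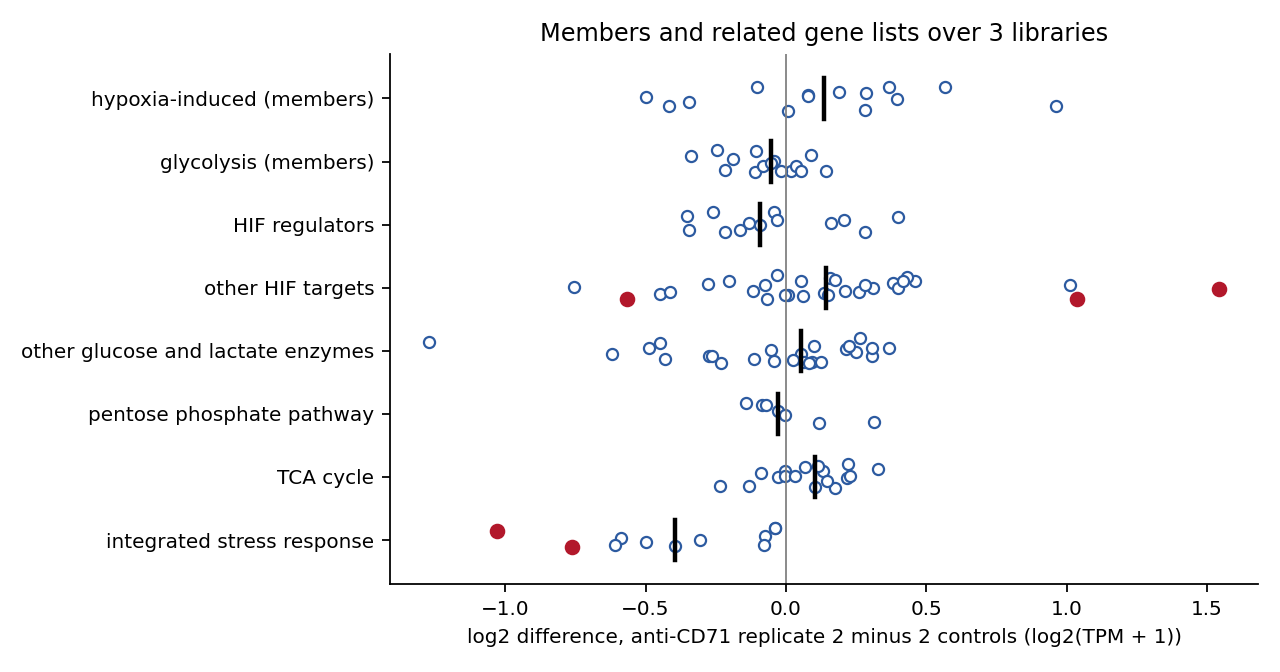
Difference in log2(TPM + 1) between anti-CD71 replicate 2 and the 2 controls (horizontal axis) for each tested gene of the hypoxia-induced and glycolytic genes and of 6 related lists; bars are list medians and filled points have an adjusted p under 0.05. Glycolytic genes lie close to 0, the integrated stress response lies wholly below 0 (median -0.40), and other HIF targets hold filled points on both sides.

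Cell type markers differed between the same libraries. Beside the counts of called markers over 3 libraries, 0.476% of all genes tested were called higher and 2.39% lower. Summed macrophage markers stood at 3906.1 and 4708.8 TPM in controls, compared with 2059.1 TPM in anti-CD71 replicate 2, with 8 of 12 called lower, and the 3 of them listed everywhere summed to 419.5 and 467.1 TPM in the control pair, compared with 295.9 and 285.9 TPM in the treated pair. Summed neutrophil markers stood at 76.1, 93.7 and 580.9 TPM, of which S100a8 and S100a9 held 265.49 and 212.99 TPM in the treated library, with 3 of 6 tested called higher. The listed transcripts of S100a9 stood at 3.67 and 0.0 TPM in controls, against 142.39 and 183.5 TPM with anti-CD71. Retnlg, Ngp and Camp, defining genes of neutrophils and their precursors, were listed at 0 in controls 1 and 2, while anti-CD71 replicate 2 had 17.34, 0.67 and 0.39 TPM of them. Of the other neutrophil markers, Il1r2 stood at 0.9, 1.18 and 6.87 TPM in controls 1 and 2 and the treated library. In the same order Csf3r stood at 7.87, 7.63 and 10.58 TPM. Cxcr2 stood at 0.15, 0.09 and 1.5 TPM, and Mmp8 at 0.14, 0.16 and 1.01 TPM. Trem1, at 6.22, 4.99 and 4.46 TPM, and Mmp9, at 51.94, 76.33 and 59.62 TPM, did not stand above both controls.

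Endothelial markers, the cells that Vegfa acts on, summed to 150.0, 144.7 and 133.7 TPM, with 0 of 11 called (2 lower at an unadjusted p under 0.05). Markers of T and natural killer cells summed to 264.5, 257.2 and 67.5 TPM, with 6 of 11 called lower. The 3 of them listed everywhere summed to 116.1 and 101.6 TPM in controls but 87.9 and 32.1 TPM with anti-CD71. Gzmb held most of this sum, at 100.74 and 84.83 TPM in controls, against 79.54 and 27.62 TPM in anti-CD71 replicates 1 and 2. For Gzmb replicate 1 lay nearer the controls. For Ncr1 (9.53 and 11.54 TPM in controls, 5.1 and 2.52 TPM treated) it lay nearer replicate 2. The same held for Cd3g (5.87 and 5.21 TPM in controls, 3.23 and 2.0 TPM treated). Over 4 libraries 0 of these 3 were called in limma (2 lower at an unadjusted p under 0.05). Erythroid markers summed to 3375.5, 3748.8 and 1007.0 TPM, with 4 of 5 called lower. Fibroblast markers summed to 908.8, 1277.7 and 833.9 TPM, with 1 of 11 called lower, compared with 2.39% of all genes. Markers of differentiated epidermis summed to 1.7, 2.0 and 50.1 TPM. The 2 of them listed everywhere were at 0.0 TPM in both controls and anti-CD71 replicate 1, and summed to 3.7 TPM in replicate 2. Sbsn was the only 1 tested over 3 libraries and was called higher, compared with 0.476% of all genes. Its listed transcripts stood at 0.74 and 0.61 TPM in controls, against 0.0 and 5.55 TPM in anti-CD71 replicates 1 and 2. Skeletal muscle markers summed to 213.1, 60.1 and 140.3 TPM, with 0 of 11 called (0 at an unadjusted p under 0.05). The part of these markers in the values of the hypoxia and glycolysis genes was not tested. In these bulk samples fewer cells of a type and less RNA per cell cannot be told apart.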

How the data were processed

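Bulk RNA sequencing was run on 2 control and 2 anti-CD71 tumours. RNA was extracted with TRIZOL and libraries were made by BGI, per the labels' protocols. The authors deposited TPM per RefSeq transcript, with the build GRCm38.p6 named in the submitters' processing notes; the unit was read from the values, which sum to 999999.29, 999998.88 and 1000000.86 in the 3 complete tables. Neither aligner nor quantifier is given in the sources used here. The table of anti-CD71 replicate 1 ended inside a line; that line was dropped, and 13586 transcripts (22.7%) were used.

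Transcripts were named from a RefSeq table of the same build (58425 of 59881 matched) and TPM were summed per gene, 1744 copies at a second locus included. Transcripts without a symbol held 1.42 to 1.55% of TPM and were left out. Comparisons of log2(TPM + 1) used limma (3.58.1, R 4.3.3) with a variance trend, for genes with at least 1 TPM in 2 libraries, adjusted by Benjamini-Hochberg over all genes tested and called at an adjusted p under 0.05. Upstream windows came from RefSeq (GRCm38.p6). Alternatives changed the pseudocount, filter, scaling, trend, listing limit, block and libraries.

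The genes and lists were chosen with earlier results of these data known. All 38 genes could be named; from other lists, called genes (up to 3 in each direction), or where none was called up to 2 with the largest difference, and up to 3 marker genes by level. Krt5, Krt14, Epcam, Itga6, Cdh1, Trp63, Cldn4, Retnlg, Ngp, Camp, Trem1, Il1r2, Csf3r, Cxcr2, Mmp8, Ncr1 and Cd3g were named after their values were seen.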

Additional observations from a re-analysis of the deposited data

How the results depend on the processing

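Of the 584 alternative values for single genes, 543 kept their direction and their side of the threshold (or had no test), 30 kept the direction and lost the call, 1 gained it and 10 turned direction. Of those for counts and medians, 31 stayed close and 28 moved. Over 4 libraries 67 genes were called (13 higher and 54 lower). The count was 1 with no filter on low values, 8 with a filter of 1 TPM in 1 library, 4 with no variance trend and 4 with any listed transcript. Median scaling gave 57 genes with a different split, 21 higher and 36 lower. Leaving out 1 library gave 1 to 96 genes (1 without control replicate 1, 2 without control replicate 2, 33 without anti-CD71 replicate 2 and 96 without anti-CD71 replicate 1). Of the hypoxia and glycolysis genes, 1 was called over 4 libraries and 0 with no filter, the filter in 1 library, no trend and any listed transcript (3, 3, 2 and 8 at an unadjusted p under 0.05 in limma), with 0 in every leave-one-out fit (1 to 3).

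With the replicate number as a block, 3 genes were called over 4 libraries (2 higher and 1 lower) and 0 of the hypoxia and glycolysis genes (3 at an unadjusted p under 0.05). Same-numbered libraries did not deviate together (correlation -0.01), so the numbers are not taken to pair them.

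Over 3 libraries 343 genes were called. The count was 0 with no filter (3401 at an unadjusted p under 0.05), 72 with the filter of 1 TPM in 1 library (60 higher and 12 lower), 225 with median scaling and 35 with no trend. Pfkfb4 was lost under these 4 settings, which left 0 of the 38 genes called (8, 9, 12 and 9 at an unadjusted p under 0.05). Leaving out a control here leaves a value with no test. The median log2 difference of the genes was 0.226 over 4 libraries and 0.115 with a listing limit of 50%. Over 3 libraries it was -0.006, with 0.036 under median scaling and -0.081 to -0.002 with a control left out. Pkm over 3 libraries turned to 0.024 with median scaling. With 1 library left out, Egln1 over 4 libraries ran from -0.028 to 0.257, Pgls from -0.056 to 0.059 and Siah2 from -0.252 to 0.09. With a control left out over 3 libraries, Car9 ran from -0.098 to 0.257, Ndrg1 from -0.004 to 0.163 and P4ha1 from -0.019 to 0.03, and Lox was -0.396 without control replicate 1. The cause was not tested. Read depth is unknown, so counting error cannot be separated from the spread between libraries.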
